A study of Homo sapiens with 6 samples.

Results

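The enzymes that carry squalene to cholesterol were described here through 9 genes, namely FDFT1, SQLE, LSS, CYP51A1, MSMO1, NSDHL, EBP, SC5D and DHCR7. They were taken by gene symbol from a table of 17104 genes, and all 9 had a row. RNA-seq had been done on cultured cells labelled as the human brain microvascular endothelial line HBMEC. The control group held 3 libraries of cells in normal culture. The other group held 3 libraries of OGD/R cells, which had been deprived of oxygen and glucose and then supplied with both again, as a cell model of stroke. No genotype, drug or time was given for either group, and no label ties the 3 libraries to separate cultures. The p-values therefore rest on a spread between samples that may be technical.

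Cholesterol is made in the endoplasmic reticulum from acetyl-CoA through the mevalonate pathway, whose product farnesyl diphosphate is the last precursor shared with other lipids. FDFT1 commits it to sterols by making squalene, SQLE and LSS turn squalene into lanosterol, and the remaining enzymes trim lanosterol to cholesterol. Several of these steps use molecular oxygen. When sterols in the endoplasmic reticulum are low, the transcription factor SREBP2 moves to the nucleus and switches on most genes of the pathway, usually together with the CCAAT-binding factor NF-Y. Brain endothelial cells form the blood-brain barrier, across which little cholesterol passes.

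After OGD/R the transcripts of 8 of the 9 enzymes were higher and 0 were lower, by edgeR's quasi-likelihood test with a threshold of 0.05 on p adjusted over all genes. In the same fit 10.2% of all genes tested were higher, 9.48% were lower and 19.7% changed in either direction. The median log2 fold change was 0.48 over the 9 enzymes and −0.0046 over all 17104 genes, and the median over the 1749 genes that rose was 0.25. In 7 of the 9 enzymes every OGD/R library lay above every control library, which was the case for 16.4% of all genes. Levels are given as CPM, the count scaled to library size with TMM factors, and fold changes as log2 of OGD/R over control. Fewer cells that make a transcript and less of it per cell cannot be told apart in such bulk libraries.

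The libraries held 31048662 to 34484647 counts each, and each of the 9 enzymes had between 219 and 8244 counts in every library, so no enzyme was near the detection limit. Fold change fell with transcript length over the series, with a Spearman's rho of −0.36 across 10848 genes, which are not independent replicates. The cell type label was checked against markers. Of 14 endothelial markers 4 had a row, and their summed level was 198 to 215 CPM in control and 203 to 210 CPM after OGD/R. The other 10, PECAM1, VWF and KDR among them, had no row, so no level can be given for them. Every row in the table had 10 or more counts in at least 3 libraries, so a missing row may mean a very low level. The epithelial markers KRT19 and GRHL2 had no row either. CDH5, the endothelial cadherin, rose (0.81 ± 0.11), ROBO4 fell (−0.75 ± 0.17), and ESAM and EGFL7 did not pass. Most of this sum was ESAM, at 138 CPM in control and 132 CPM after OGD/R. Of 10 epithelial markers 8 had a row, 4 of them rose and 0 fell, and their sum was 2485 to 2711 CPM in control and 3048 to 3104 CPM after OGD/R. The keratin KRT8 had the largest level among them and rose from 1235 to 1555 CPM (0.33 ± 0.04 SE). Most of the epithelial sum was keratin, with KRT18 and KRT7 at 848 and 356 CPM in control and EPCAM next at 52.3 CPM. CDH1, the epithelial cadherin, was at 1.19 CPM in control and 0.98 CPM after OGD/R. CDH1, ESRP1 and CLDN4 had negative fold changes that did not pass. The sums of the markers of fibroblasts and pericytes, of immune cells, and of astrocytes and neurons were at most 18.8, 5.45 and 1.22 CPM in any library. The part of cell composition in the results below was not tested.

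**Figure D1:**
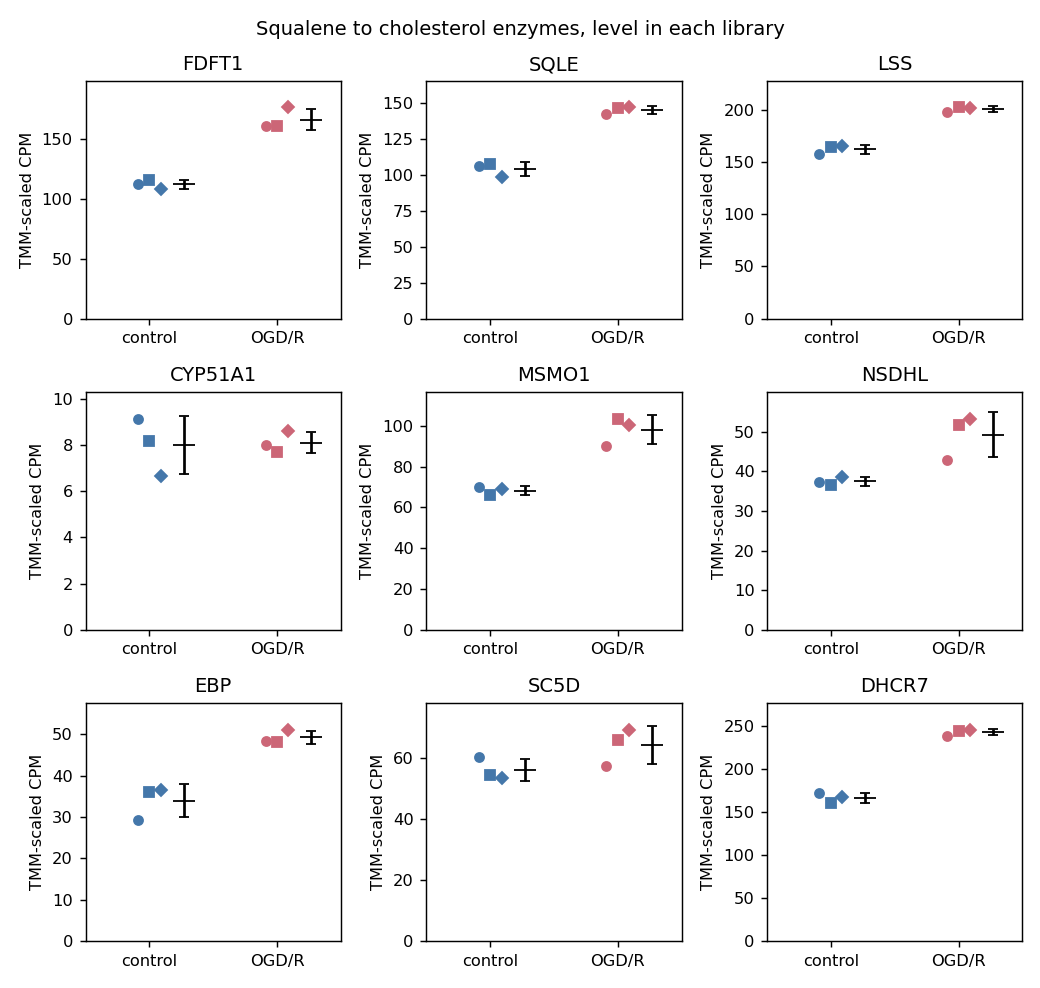
Level of each of the 9 enzymes in TMM-scaled CPM (vertical axis, starting at 0) in the control and OGD/R libraries. Circles, squares and diamonds are replicates 1, 2 and 3, and the black bar is the mean ± SD over 3 libraries. The groups are apart in 7 panels and overlap for CYP51A1 and SC5D.

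The promoters of the enzymes are shown because the genes moved together. RefSeq windows on GRCh38.p14, each from 250 bases before to 50 bases after a gene's start, were found for 7 of the 9 genes. The 250 bases before the start are printed for 3 enzymes with large rises, MSMO1 (chr4:165327419-165327668, plus strand), EBP (chrX:48521558-48521807, plus strand) and DHCR7 (chr11:71448394-71448643, minus strand), for NSDHL (chrX:152830813-152831062, plus strand), which had the most matches, and for CYP51A1 (chr7:92134478-92134727, minus strand), the enzyme that did not pass. Each is read 5′ to 3′ along the gene, and capitals mark CCAAT, or the same motif on the other strand, read as ATTGG. No build used for the counts could be established, so these coordinates are those of the RefSeq table alone.
MSMO1: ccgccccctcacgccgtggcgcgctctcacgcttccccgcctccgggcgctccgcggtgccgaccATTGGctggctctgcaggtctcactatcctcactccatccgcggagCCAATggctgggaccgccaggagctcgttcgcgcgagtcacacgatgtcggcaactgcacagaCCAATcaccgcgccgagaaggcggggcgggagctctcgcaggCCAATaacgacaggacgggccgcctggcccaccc
EBP: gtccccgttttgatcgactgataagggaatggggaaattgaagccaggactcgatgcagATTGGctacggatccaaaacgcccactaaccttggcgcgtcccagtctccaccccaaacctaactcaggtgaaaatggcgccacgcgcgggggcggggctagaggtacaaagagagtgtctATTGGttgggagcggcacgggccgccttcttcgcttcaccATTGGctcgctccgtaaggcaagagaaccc
DHCR7: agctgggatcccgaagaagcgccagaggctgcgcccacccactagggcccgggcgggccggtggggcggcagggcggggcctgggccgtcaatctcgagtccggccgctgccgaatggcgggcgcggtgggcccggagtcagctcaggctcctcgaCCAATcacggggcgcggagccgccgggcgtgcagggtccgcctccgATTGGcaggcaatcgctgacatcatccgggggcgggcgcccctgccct
NSDHL: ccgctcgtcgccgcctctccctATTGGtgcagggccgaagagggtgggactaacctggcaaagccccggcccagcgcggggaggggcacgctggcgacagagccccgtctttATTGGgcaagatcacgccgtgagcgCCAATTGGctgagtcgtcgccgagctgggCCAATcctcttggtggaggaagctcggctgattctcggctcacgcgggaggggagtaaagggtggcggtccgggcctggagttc
CYP51A1: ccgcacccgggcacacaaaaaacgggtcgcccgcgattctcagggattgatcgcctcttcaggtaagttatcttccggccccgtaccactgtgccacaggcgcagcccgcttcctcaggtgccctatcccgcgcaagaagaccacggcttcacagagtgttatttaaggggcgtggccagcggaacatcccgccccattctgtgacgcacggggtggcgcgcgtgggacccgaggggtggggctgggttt

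CCAAT, searched on both strands of the whole windows, was found in 6 of the 7 genes with a window. Over all 35116 windows 34.6% held it, and over the 11509 measured genes with a window 42.4% did. MSMO1 had 4 matches, EBP 3 and DHCR7 2 in the window printed. DHCR7 has another annotated start, whose window (its 250 upstream bases lie at chr11:71449044-71449293) held 0 matches of CCAAT and 0 of the GC box below. NSDHL had 5, of which the pair starting at positions −113 and −110 from the gene's start overlap in a palindrome. LSS had 1, and CYP51A1 had none in the window printed. SC5D had 1 in each of its 2 windows, which overlap and hold the same match. At least 2 matches in a window were thus found in 4 of the 7 genes, against 16.0% of measured genes. The fold changes of these 4 were 0.39 to 0.55, and those of LSS, SC5D and CYP51A1 were 0.31, 0.19 and 0.020. FDFT1 and SQLE, which rose by 0.57 and 0.48, had no window and are missing here. Over all measured genes with a window the medians were 0.03 with at least 2 matches, 0.01 with 1 and −0.01 with none. A relation between matches and fold change was not tested. The GC box GGGCGG was present in 6 of the 7, against 75.8% of measured genes, with a row of matches in the LSS promoter. The E-box CACGTG was present in LSS and SC5D, against 12.2%. The letters TCACNCCAC, one form of the sterol regulatory element bound by SREBP2, were found in 0 of the 7 genes and in 1.43% of measured genes. A match is a description of the letters and not a binding site.

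The entry steps from farnesyl diphosphate to lanosterol all rose. FDFT1, squalene synthase, which joins a pair of farnesyl diphosphates, was at 112, 116 and 109 CPM in control replicates 1, 2 and 3 and at 161, 161 and 177 CPM in OGD/R replicates 1, 2 and 3. The groups did not overlap, and the lowest OGD/R library was well above the highest control. Its mean rose from 112 ± 3.44 to 166 ± 8.93 CPM (SD, n = 3 each), the largest fold change of the 9 (0.57 ± 0.05 SE, edgeR adjusted p = 2.20e-13). SQLE, squalene epoxidase, a rate-limiting enzyme of the pathway that uses oxygen, was at 106, 108 and 98.4 CPM in control and at 142, 146 and 147 CPM after OGD/R. It rose from 104 ± 4.95 to 145 ± 2.51 CPM (0.48 ± 0.05, edgeR adjusted p = 2.71e-11), again with no overlap.

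LSS, lanosterol synthase, folds the epoxide into the first sterol. Its levels of 158, 165 and 165 CPM in control and 198, 202 and 202 CPM after OGD/R were tightly grouped. The rise from 162 ± 4.21 to 201 ± 2.49 CPM was smaller (0.31 ± 0.04, edgeR adjusted p = 2.34e-07). Its 95% interval of 0.22 to 0.39 ended below those of FDFT1, MSMO1 and DHCR7, which began at 0.47, 0.41 and 0.46. It also ended barely below that of EBP, at 0.3920 against 0.3925. After the length and GC correction LSS was at 0.38 ± 0.04 and MSMO1 at 0.40 ± 0.05, so the gap to MSMO1 depended on the processing. FDFT1 and DHCR7 were then at 0.52 ± 0.04 and 0.53 ± 0.04, and NSDHL was below LSS at 0.32 ± 0.07.

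CYP51A1, the demethylase that starts the trimming of lanosterol, was the enzyme for which no change was detected. It was at 9.15, 8.19 and 6.66 CPM in control and at 7.99, 7.71 and 8.62 CPM after OGD/R, and the OGD/R libraries lay within the range of the controls. The means were 8.0 ± 1.26 and 8.11 ± 0.47 CPM (0.020 ± 0.14, edgeR adjusted p = 0.952), and the 95% interval of −0.26 to 0.30 covers a rise as large as that of SC5D. The sign turned when fold changes were corrected for length and GC, under total-count scaling, and when control replicate 3 or OGD/R replicate 3 was left out (−0.094 to 0.13 over all libraries left out). In GENCODE 29, 83.2% of the exon bases of CYP51A1 are shared with other annotated genes, a pair on the same strand and one antisense, so its value is uncertain. None of these overlapping genes was analysed here, and no source used here states how reads on shared bases were counted. Over the other 8 enzymes the shared part was 0% to 7.88%.

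The members that act on further methyl groups after CYP51A1, MSMO1 and NSDHL, rose. MSMO1, an oxygen-using sterol oxidase, was at 70.0, 65.9 and 68.7 CPM in control and at 90.1, 104 and 100.5 CPM after OGD/R. All 3 OGD/R libraries were above the controls, replicate 1 by the least. The mean rose from 68.2 ± 2.10 to 98.0 ± 7.0 CPM (0.52 ± 0.05, edgeR adjusted p = 1.65e-10), and the fold change was 0.40 after the length and GC correction. NSDHL, the dehydrogenase that decarboxylates the product of MSMO1, was at 37.2, 36.5 and 38.7 CPM in control and at 42.9, 51.6 and 53.3 CPM after OGD/R. OGD/R replicate 1 lay closer to the controls than to the other two OGD/R libraries. NSDHL rose from 37.5 ± 1.09 to 49.2 ± 5.58 CPM (0.39 ± 0.07, edgeR adjusted p = 2.82e-05), and by 0.48 without that library. Without OGD/R replicate 3 it rose by 0.33.

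The last members move and reduce the double bonds of the sterol rings. EBP, the sterol isomerase, was at 29.4, 35.9 and 36.6 CPM in control and at 48.5, 48.1 and 51.1 CPM after OGD/R. Control replicate 1 was the low library, and the groups did not overlap. The mean rose from 34.0 ± 3.99 to 49.2 ± 1.63 CPM (0.54 ± 0.07, edgeR adjusted p = 9.40e-08). Without control replicate 1 the fold change of EBP was 0.44. DHCR7, the reductase that makes cholesterol from a sterol that is also the precursor of vitamin D, was at 172, 161 and 167 CPM in control and at 239, 244 and 246 CPM after OGD/R. These groups lay far apart and each was tight. DHCR7 rose from 166 ± 5.51 to 243 ± 3.69 CPM (0.55 ± 0.04, edgeR adjusted p = 3.08e-14), with the smallest p of the 9.

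SC5D, the oxygen-using desaturase just before DHCR7, rose least among the enzymes that passed. It was at 60.3, 54.3 and 53.5 CPM in control and at 57.3, 65.9 and 69.2 CPM after OGD/R. OGD/R replicate 1 was below control replicate 1, so the groups overlapped. The mean went from 56.1 ± 3.71 to 64.1 ± 6.19 CPM (0.19 ± 0.06, edgeR adjusted p = 0.0227, and 0.00194 to 0.318 over the alternatives). SC5D no longer passed once length and GC were corrected for (0.086, adjusted p = 0.318), under total-count scaling (0.16, adjusted p = 0.0579), and when control replicate 2 (0.18), control replicate 3 (0.16), OGD/R replicate 2 (0.17) or OGD/R replicate 3 (0.14) was left out. Its interval of 0.067 to 0.32 ended below those of FDFT1, SQLE, MSMO1, EBP and DHCR7. Differences between enzymes in fold change were not tested beyond these intervals. Without the length and GC correction the intervals were apart for 14 of 36 pairs.

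The libraries differed in how far the whole set moved. The summed level of the 9 enzymes was 754, 749 and 743 CPM in control replicates 1, 2 and 3 and 987, 1031 and 1054 CPM in OGD/R replicates 1, 2 and 3. The mean sum was 749 ± 5.28 CPM in control and 1024 ± 34.3 CPM after OGD/R, a ratio of 1.37. The sum spread more after OGD/R, while the SDs of SQLE, LSS, CYP51A1, EBP and DHCR7 were smaller after OGD/R than in control. OGD/R replicate 1 was the lowest of its group for 7 of the 9 enzymes and replicate 3 the highest for 7. Without OGD/R replicate 1 the median fold change of the 9 was 0.50, and 8 enzymes remained higher by count. Without control replicate 1 the median was 0.44, and after the length and GC correction it was 0.40.

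Between enzymes, levels can be compared only per length. Per kilobase of all annotated exons, the control level was highest for DHCR7 (40.0 ± 1.33 CPM per kb), followed by SQLE (24.2 ± 1.15), MSMO1 (23.6 ± 0.73), LSS (22.4 ± 0.58) and FDFT1 (21.6 ± 0.66). SQLE and MSMO1 were within their spread of each other. NSDHL (18.8 ± 0.55), EBP (14.1 ± 1.66), SC5D (10.1 ± 0.67) and CYP51A1 (2.23 ± 0.35) were lower. Per kilobase of the longest transcript DHCR7 was again highest at 62.4 CPM per kb and CYP51A1 lowest at 2.49, while FDFT1 moved to the next place after DHCR7 at 42.2. Counted on unshared exon bases alone, CYP51A1 was at 13.3 CPM per kb in control, between EBP and SC5D. This last value assumes that no read on a shared base was counted.

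**Figure D2:**
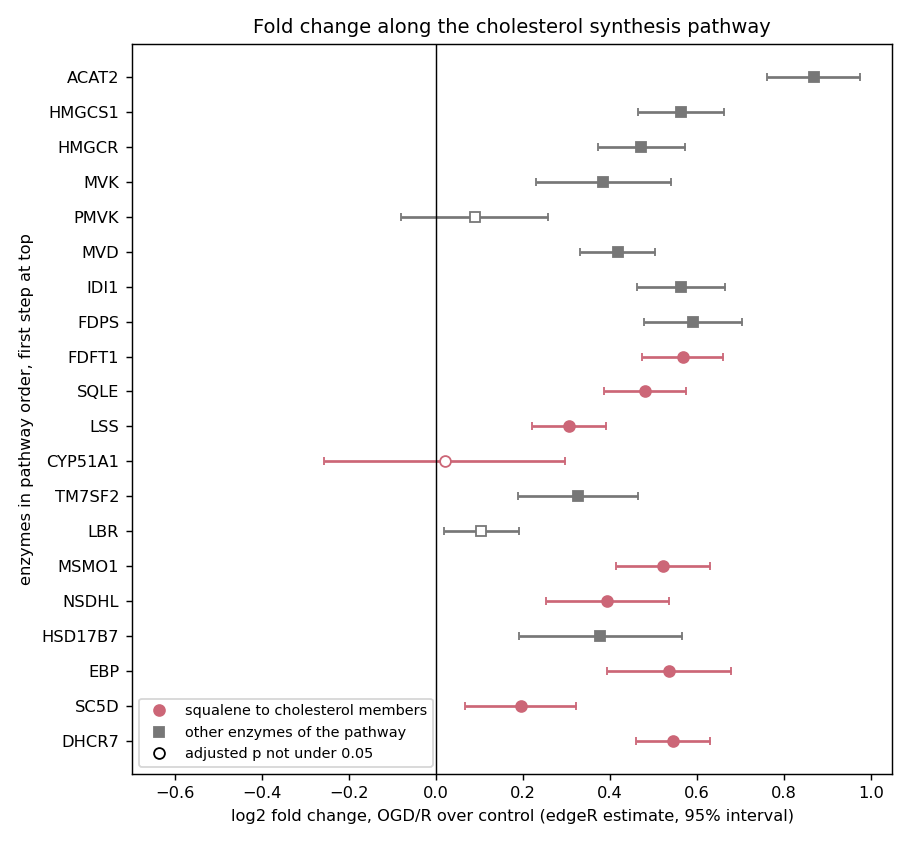
log2 fold change of OGD/R over control with its 95% interval (horizontal axis) for enzymes in pathway order from top to bottom. Red circles are the 9 enzymes from squalene synthesis onward that this text describes, grey squares the others, and open symbols did not pass. CYP51A1, PMVK and LBR are the open symbols.

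Of the other late pathway genes, ERG28, TM7SF2 and HSD17B7 also rose. The scaffold protein gene ERG28 rose from 59.2 ± 1.55 to 79.9 ± 2.59 CPM (0.43 ± 0.05). TM7SF2, a sterol reductase that acts after CYP51A1, rose from 34.0 ± 1.10 to 42.5 ± 2.27 CPM (0.33 ± 0.07). HSD17B7, the ketoreductase that follows NSDHL and has near-identical pseudogene copies, rose from 17.9 ± 2.06 to 23.3 ± 1.94 CPM (0.38 ± 0.09). LBR, which shares the step of TM7SF2 and also anchors chromatin to the nuclear envelope, had a value of 0.10 ± 0.04 (edgeR adjusted p = 0.0809, and 0.0433 with DESeq2), or 0.053 once corrected for length and GC.

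Among the 4 oxygen-using members, SQLE, CYP51A1, MSMO1 and SC5D, 3 were higher, with fold changes of 0.020 to 0.52 and a median of 0.34. The other 5 members all rose, by 0.31 to 0.57, with a median of 0.54. SQLE (0.48) and MSMO1 (0.52) lay within that range. SC5D (0.19) and CYP51A1, whose value is uncertain, lay below it. Of the genes that supply these oxygenases with electrons or bind haem, 3 of 7 were higher and 0 lower, with a median of 0.14. Neither difference in medians was tested. CYB5B, a cytochrome b5, rose from 172 ± 1.47 to 211 ± 1.21 CPM (0.29 ± 0.04), although 35.1% of its exon bases are shared with another gene. The sterol-binding haem protein gene PGRMC1 rose by 0.26 ± 0.05 and CYB5A by 0.23 ± 0.07, and PGRMC2 had a value of 0.12 ± 0.06 (adjusted p = 0.187). Corrected for length and GC, PGRMC1 had a value of 0.14 (adjusted p = 0.00503). CYB5A did not pass without control replicate 3 (0.21, adjusted p = 0.0755) or OGD/R replicate 3 (0.16, adjusted p = 0.186).

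Upstream, 8 of 9 mevalonate pathway genes were higher and 0 were lower, with a median of 0.47. FDPS, which makes the substrate of FDFT1, rose from 51.7 ± 1.57 to 78.0 ± 1.79 CPM (0.59 ± 0.06). The isomerase IDI1 rose from 79.8 ± 4.39 to 118 ± 4.02 CPM (0.56 ± 0.05), and HMGCS1, which makes the substrate of HMG-CoA reductase, from 86.5 ± 1.55 to 128 ± 7.75 CPM (0.56 ± 0.05). ACAT2, which joins acetyl-CoA units in the first step, rose from 54.6 ± 1.79 to 99.7 ± 1.60 CPM (0.87 ± 0.05). PMVK, a kinase, was the gene that did not pass (0.089 ± 0.08, adjusted p = 0.525). Exon bases shared with antisense genes were 52.3% for ACAT2, 18.6% for FDPS, 14.8% for IDI1 and 14.9% for HMGCS1, and no source states whether strand was counted. A further 8 genes draw farnesyl or geranylgeranyl diphosphate into dolichol, prenylated proteins and ubiquinone. Of these 8, 0 were higher and 0 lower with edgeR, DESeq2 or limma-voom. Over all genes 10.2% were higher and 9.48% lower with edgeR, so 0 of 8 is near that share. With edgeR 2 of the 8 had an unadjusted p under 0.05, PDSS1 and PDSS2. PDSS1 was at 0.24 ± 0.12 and PDSS2 at 0.19 ± 0.09, with edgeR adjusted p of 0.147 and 0.151, and the median of the 8 was −0.028. With length and GC corrected for, PDSS1 had a value of 0.11.

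In the sterol-sensing list 2 of 7 genes were higher and 0 lower. INSIG1, which holds the SREBP escort SCAP in the endoplasmic reticulum and is itself an SREBP target, rose by 0.64 ± 0.05. SREBF2, the gene of SREBP2, was at 194, 180 and 192 CPM in control and at 210, 205 and 218 CPM after OGD/R (0.16 ± 0.04, edgeR adjusted p = 0.00404), and its fold change was 0.25 after the length and GC correction. The SREBP protease genes MBTPS1 and MBTPS2 were at −0.064 ± 0.05 and 0.12 ± 0.09, with adjusted p of 0.389 and 0.402. Of the degradation genes, 2 of 8 were higher and 1 lower, and the count of lower genes was 0 to 2 over the alternatives. The ATPase gene VCP rose by 0.26 ± 0.04 and the ligase gene RNF145 by 0.21 ± 0.04. MARCHF6, the ubiquitin ligase that degrades SQLE, went from 361 ± 14.9 to 334 ± 7.67 CPM (−0.11 ± 0.04, edgeR adjusted p = 0.0471), a call that ended in 10 of 16 alternatives and had a value of −0.031 after the length and GC correction.

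Among genes of sterol uptake and transport, LIPA, the lysosomal acid lipase, rose from 89.5 ± 2.73 to 107 ± 2.43 CPM (0.26 ± 0.05). SCARB1 and NPC2 were at 0.16 ± 0.07 and 0.10 ± 0.05, with adjusted p of 0.108 and 0.161, and did not pass. With the length and GC correction SCARB1 passed (0.24, adjusted p = 0.00452) and NPC2 turned to −0.054, and NPC2 passed without control replicate 2 (0.14, adjusted p = 0.0361). Of 7 genes of sterol efflux and oxysterol signalling 5 had a row, 0 were higher and 1 was lower. That gene was ABCA1, the cholesterol exporter, at 17.4, 17.1 and 18.4 CPM in control and at 11.96, 11.7 and 12.7 CPM after OGD/R (−0.54 ± 0.10, edgeR adjusted p = 5.91e-05). The groups of ABCA1 did not overlap. Its fold change ranged from −0.57 to −0.42 over the 16 alternatives, and the call was the same in all 16. NR1H3 and NR1H2, which encode the LXR receptors, were at 0.15 ± 0.10 and 0.07 ± 0.06 and did not pass. In fatty acid synthesis 7 of 8 genes were higher and 0 lower, with a median of 0.26. The desaturase genes SCD and FADS2 rose by 0.39 ± 0.04 and 0.53 ± 0.08, ELOVL6 by 0.43 ± 0.06, and the synthase FASN by 0.30 ± 0.04, or 0.50 after the length and GC correction.

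**Figure D3:**
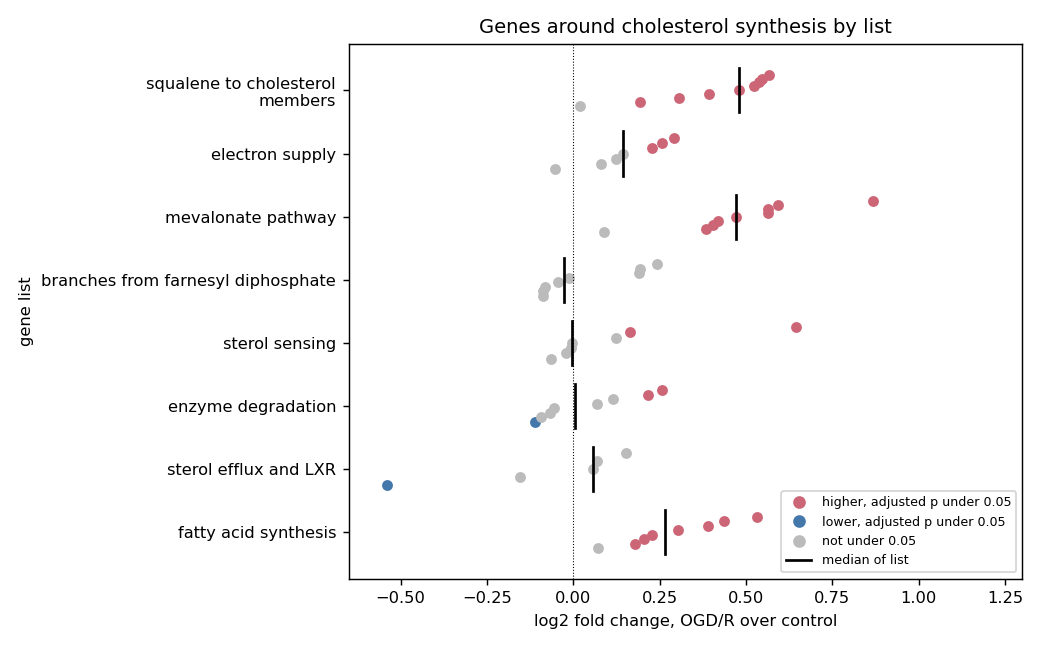
log2 fold change of OGD/R over control (horizontal axis) of each gene in the 9 enzymes and 7 other lists, 1 point per gene, with a black bar at the list's median. Red points are higher and blue points lower at an adjusted p under 0.05. The medians of the squalene to cholesterol enzymes and the mevalonate pathway are 0.48 and 0.47, and that of the branches from farnesyl diphosphate is −0.028.

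The genes whose pattern over the 6 libraries was most like that of the 9 enzymes were MYCBP, CALM2, ERP44, PSMD6 and KIF20A. Likeness was Pearson's r between a gene's log2 CPM and the mean of the standardised log2 CPM of the 9, and it was 0.999, 0.998, 0.998, 0.997 and 0.997 for these genes. The 6 libraries form only 2 groups, and 920 of the 11181 genes that averaged 5 CPM or more had an r above 0.9. MYCBP rose from 15.9 ± 0.46 to 22.8 ± 1.63 CPM (0.52 ± 0.09), close in size to the enzymes, whereas PSMD6 was at 0.10 ± 0.05 (edgeR adjusted p = 0.152). Because r takes no account of the size of a change, it can be high for genes with quite different fold changes.

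**Figure D4:**
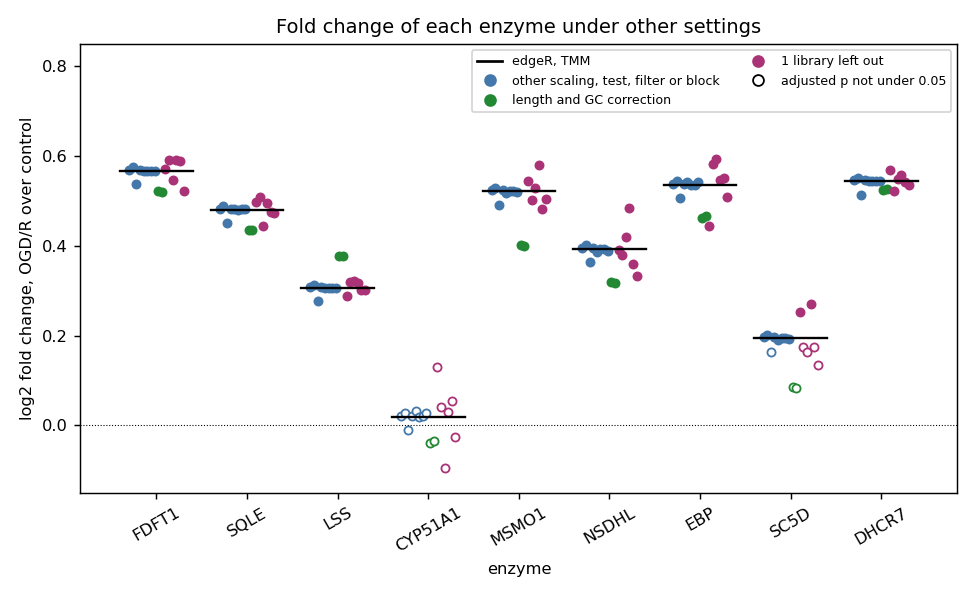
log2 fold change of OGD/R over control (vertical axis) of each of the 9 enzymes, with the black line at the reported edgeR value and 1 point for each of 16 alternatives. Open points did not pass an adjusted p of 0.05. Open points are found for CYP51A1 and SC5D, and the other 7 enzymes stay above 0.27.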

How the data were processed

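RNA-seq counts were analysed for 3 control and 3 OGD/R libraries. The deposited values are whole-number counts per Ensembl gene, not normalised. Per the submitters' processing notes, Trimmomatic, HISAT2, SAMtools, featureCounts and edgeR were used, without versions, and the build is given as GRCm38, a mouse build, although the gene IDs are human. No row has fewer than 3 libraries with 10 or more counts, so low rows had been removed before deposit. Symbols matched 17093 of 17104 genes.

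Counts were scaled by TMM and tested with edgeR 4.0.16 (R 4.3.3), by its quasi-likelihood test with robust dispersions, two-sided, with Benjamini-Hochberg adjustment over all genes and a threshold of 0.05. filterByExpr removed 0 genes. The script was tested on simulated data. The alternatives were DESeq2 1.42.0, limma-voom (limma 3.58.1), scaling by total counts, by upper quartiles or by RLE, no filter, at least 1 CPM in 3 libraries, the replicate number as a block, an offset for length and GC (mgcv 1.9.3, longest GENCODE 29 transcript), both together, and leaving out each library. Libraries differed by a chi-square per degree of freedom of 4.07 to 7.42 within groups and 15.97 to 23.5 across, so none was counted as a duplicate. The 9 enzymes and 9 further lists were chosen with earlier results of these data known. The rule for named genes takes all 9 enzymes, the late pathway partners, up to 4 genes of smallest p from each other list, and the 5 genes of most similar pattern. Some list genes that the rule takes are not reported here. PMVK falls outside it and was named after its value was seen.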

Additional observations from a re-analysis of the deposited data

How the results depend on the processing

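The direction and the call of FDFT1, SQLE, LSS, MSMO1, NSDHL, EBP and DHCR7 were the same in all 16 alternatives, and 7 or 8 enzymes were higher and 0 lower in each. SC5D no longer passed under total-count scaling (0.16), the length and GC correction (0.086) and that correction with the replicate block (0.084), and ranged from 0.14 to 0.27 with 1 library left out. CYP51A1 turned to −0.011, −0.040 and −0.034 in the same 3 settings and ranged from −0.094 to 0.13 with 1 library left out, and NPC2 turned to −0.054 and −0.053 in the length and GC settings without and with the block. ABCG1, with under 1 CPM in every library, ranged from −1.28 to 0.44 with 1 library left out. The cause of these changes was not tested. Over all genes, lower calls ranged from 1079 (without control replicate 3) to 1527 with 1 library left out, against 1621. Of the calls, 51.9% were higher with TMM and 39.7% with total-count scaling. The replicate block gave 3529 calls against 3370 and changed no enzyme's call. Deviations of libraries with the same number correlated at −0.0077 to 0.083 over 3 pairs, and those with different numbers at −0.059 to 0.063. So few values neither show nor exclude that the numbers pair the samples. Dropping the filter left the gene set as it was, so it shows nothing about filtering. Among the 9 enzymes CYP51A1 had the fewest counts, 219 to 299 a library, and ABCG1 had 4 to 33.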

Other observations

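Pseudogenes of CYP51A1 had rows of their own. CYP51A1P2 had 26, 25 and 20 counts in the control libraries and 27, 29 and 36 after OGD/R (0.38 ± 0.40, edgeR adjusted p = 0.570), and CYP51A1P1 had at most 12 counts in any library. Both are small beside the counts of CYP51A1 itself.

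Over the 11509 measured genes with a promoter window, the median log2 fold change was 0.03 for genes with at least 2 CCAAT matches, 0.01 with 1 match and −0.01 with none.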
